A study of Mus musculus with 17 samples.

Results

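The regions described here are promoters of protein-coding genes at which open chromatin was called in some libraries of the series, neither in nearly all nor in very few of them. Peaks of all 17 libraries on chromosomes 1 to 19 that overlapped were merged into 277655 regions. A region was chosen when it lay within 1 kb of the 5′ end of a protein-coding gene and held a peak in 4 to 13 of the 17 libraries. The rule found 1363 regions near 1333 of 20807 autosomal protein-coding genes, out of 13942 regions near such a 5′ end. The number of calling libraries selected the regions, so that number is given as a description and is not tested.

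The series profiled open chromatin by ATAC-seq, in which a transposase cuts accessible DNA, in neuronal (NeuN-sorted) nuclei of the nucleus accumbens, a ventral striatal region of the reward circuit, of C57BL/6J mice. Per the study's methods, each library pooled tissue of 3 mice aged 52 to 54 days. Females in diestrus, the low-estrogen stage of the cycle, and in proestrus, the high-estrogen stage, were compared with males. In each of these, mice killed 1 h after cocaine (10 mg/kg) were set against controls that had received no cocaine. Per the study's methods, the controls served as the baseline time point. The sources used here do not say whether they were injected. Parts of the injection itself and of the time after it in the cocaine differences thus cannot be told apart. Each of the 6 groups had 3 libraries, except male cocaine with 2. The proestrus cocaine libraries are numbered 1, 2 and 4 in the labels. One diestrus cocaine library (number 2) has no stage in its stage field, so the title gave its group.

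A promoter is the stretch around the start of a gene where the transcription machinery assembles. Active promoters are depleted of nucleosomes and so are cut readily. Many of them lie in CpG islands, GC-rich stretches in which the CpG dinucleotide is not depleted, and these are open in most cell types, whereas CpG-poor promoters tend to be open in a few cell types.

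Peaks on chromosomes 1 to 19 numbered 74532 (male cocaine library 2) to 155025 (diestrus cocaine library 1) per library. The files hold peaks and no read totals, so depth per library is not known from them. The paper reports read numbers per library in its supplement. They were not used here, so the part of depth in the group differences was not tested. All 12 female and none of the 5 male libraries had a peak at the Xist 5′ end, and all 5 male and none of the 12 female libraries had one at that of the Y-linked gene Ddx3y. The neuronal gene Rbfox3, which encodes NeuN, had a promoter peak in 17 of 17 libraries. Of 12 oligodendrocyte-lineage genes, 10 had a promoter peak in proestrus cocaine library 2 and 3 or 4 in each other library. Mog, Mag, Mobp, Sox10, Opalin and Ermn, which mark that lineage, were among the 10. That library stands apart, and results on proestrus cocaine are given with and without it. Tissue was pooled and mixed, so fewer cells with an open promoter and less opening per cell cannot be told apart.

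For each cocaine comparison and direction, the sequence just before the 5′ end is printed for the gene with the strongest peaks among those whose region separated the libraries completely, to show what kind of promoter was involved. The bases are from RefSeq's GRCm38 assembly, read on the strand of the gene, and the gene's first base follows the last letter. Runs stop where another annotated exon begins. Capitals mark matches, on either strand, to the GC box (GGGCGG), the CCAAT box (CCAAT), the ETS core (CCGGAA) and the E-box (CACGTG), and to an AP-1 site (TGACTCA or TGAGTCA), a CRE (TGACGTCA), the NRF1 core (GCATGCGC) and a TATA box (TATAAA, on the gene's strand 40 to 20 bases before the start), of which the last 4 had no match in these runs.
Gch1 (gained in diestrus, chr14:47189414-47189613, minus strand): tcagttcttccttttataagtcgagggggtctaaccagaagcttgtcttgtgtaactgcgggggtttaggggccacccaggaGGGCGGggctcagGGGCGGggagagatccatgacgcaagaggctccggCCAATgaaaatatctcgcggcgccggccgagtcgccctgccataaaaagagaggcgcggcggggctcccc
Sema3g (lost in diestrus, chr14:31217660-31217859, plus strand): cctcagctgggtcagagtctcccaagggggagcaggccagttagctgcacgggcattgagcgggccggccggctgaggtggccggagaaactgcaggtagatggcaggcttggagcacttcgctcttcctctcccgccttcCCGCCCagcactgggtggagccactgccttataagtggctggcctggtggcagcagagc
Rhoj (gained in proestrus, chr12:75308122-75308321, plus strand): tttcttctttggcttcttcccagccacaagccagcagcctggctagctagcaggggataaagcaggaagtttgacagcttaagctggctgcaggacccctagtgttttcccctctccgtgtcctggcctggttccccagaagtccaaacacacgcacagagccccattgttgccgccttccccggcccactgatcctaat
Drd4 (lost in proestrus, chr7:141291806-141292005, plus strand): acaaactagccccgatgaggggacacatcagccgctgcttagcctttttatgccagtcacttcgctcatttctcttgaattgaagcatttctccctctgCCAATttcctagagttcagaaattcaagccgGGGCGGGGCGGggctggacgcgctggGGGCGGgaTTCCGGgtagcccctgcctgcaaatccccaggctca
Zfp758 (gained in males, chr17:22361401-22361452, plus strand): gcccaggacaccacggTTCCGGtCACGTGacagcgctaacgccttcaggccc
Rtn4rl2 (lost in males, chr2:84886711-84886910, minus strand): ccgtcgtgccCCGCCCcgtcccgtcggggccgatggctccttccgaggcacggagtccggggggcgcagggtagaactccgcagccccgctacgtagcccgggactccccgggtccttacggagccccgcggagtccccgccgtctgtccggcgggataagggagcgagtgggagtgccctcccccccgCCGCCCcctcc
A match is a run of letters, not a bound site. Gch1 has GC boxes starting 118 and 105 bases before the 5′ end and a CCAAT box 70 bases before it. Drd4 has 3 GC boxes, of which those starting 70 and 65 bases before the 5′ end overlap, together with a CCAAT box and an ETS core. The Rhoj run holds 4 CpG and none of the motifs, and the Rtn4rl2 run holds 26 CpG. The strongest summit of the Rtn4rl2 region lay 2465 bases upstream of the 5′ end, outside the printed run. Zfp758 and Zfp944 start back to back on opposite strands, and the run between them holds an ETS core and an E-box.

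Most promoter regions were called in all 17 libraries or in very few. Of the 13942 promoter regions, 9636 were called in 17 libraries and 1496 in 1. Between these ends the number fell to 220 regions at 4 libraries and 99 at 13. Just outside the limits there were 342 regions called in 3 libraries and 117 called in 14. Strength changed little across the limits. The median fold enrichment over background, averaged over the calling libraries, was 2.81 at 3 libraries, 2.83 at 4, 3.35 at 13, 3.46 at 14 and 13.1 at 17.

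**Figure D1:**
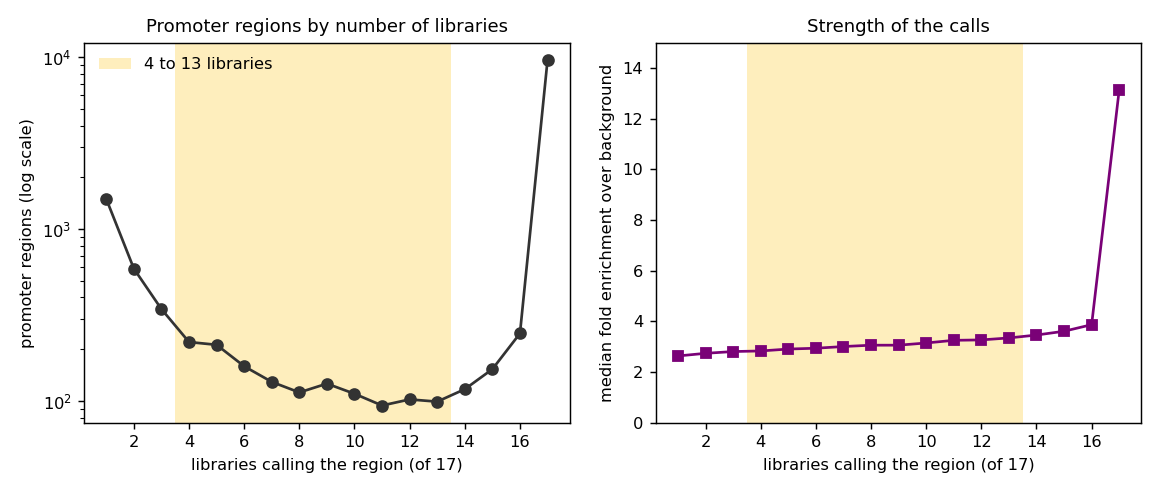
The left panel plots the number of promoter regions (log scale) against the number of libraries, of 17, that called them, and the right panel plots the median fold enrichment of those regions. The shaded range of 4 to 13 libraries runs from 220 to 99 regions with medians of 2.83 to 3.35, while regions called in 17 libraries number 9636 with a median of 13.1.

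By their median, the regions chosen were weak in each of the 17 libraries. The median fold enrichment of the chosen regions ranged from 2.75 (proestrus control library 1) to 3.44 (male control library 2) over libraries, against 10.7 to 15.8 for promoters called in all 17. The weakest peak kept in any library had a fold enrichment of 1.97 to 2.21. The medians of the chosen regions thus lay near the lowest fold that was still called, and a missing call does not show a closed promoter.

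Fewer than 1 in 2 of the regions covered the gene start. The 5′ end lay inside 643 of the 1363 regions (47.2%), while 352 lay upstream of it and 368 downstream, at a median of 627 bases. Among promoter regions called in 17 libraries, 96.8% covered the 5′ end. The regions were also narrower, with a median width of 670 bases (quartiles 506 and 951) against 2932 bases. Where a region covered the 5′ end, the summit of its strongest peak was close to it, within 250 bases in 514 of 649 region and gene pairs (79.2%), against 76.1% for promoters called in 17 libraries.

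Some regions stood beside a promoter that was itself called nearly everywhere. For 352 of the 1363 regions (25.8%), another region called in 14 to 17 libraries lay within 1 kb of the same 5′ end, and 309 of these did not cover the 5′ end. The other 1011 regions (74.2%) had no such neighbour, and 600 of them covered the 5′ end. In 1035 of the 1363 regions (75.9%), every calling library had a peak of its own within 1 kb of the 5′ end, and in the rest some of the merged peaks lay farther off.

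The genes were intermediate in base composition between genes with no called region and genes with promoters called in nearly all libraries. Genes were sorted by the region near their 5′ end with the most calls. The CpG observed/expected ratio of the 1 kb around the 5′ end had a median of 0.182 in the 7210 genes with no region, 0.318 in 926 genes whose best region was called in 1 to 3 libraries, 0.472 in the 968 genes at 4 to 13 and 0.739 in the 11703 genes at 14 to 17. The median GC content was 46.2%, 53.1%, 55.4% and 59.2% in the same order. Taking a GC content above 50% and a ratio above 0.6 as CpG-rich, 33.8% of the 968 genes were CpG-rich, against 6.53% with no region, 19.98% at 1 to 3 libraries, 72.8% at 14 to 17 and 45.7% of all genes. The 968 genes spanned both kinds of promoter rather than forming a narrow class.

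**Figure D2:**
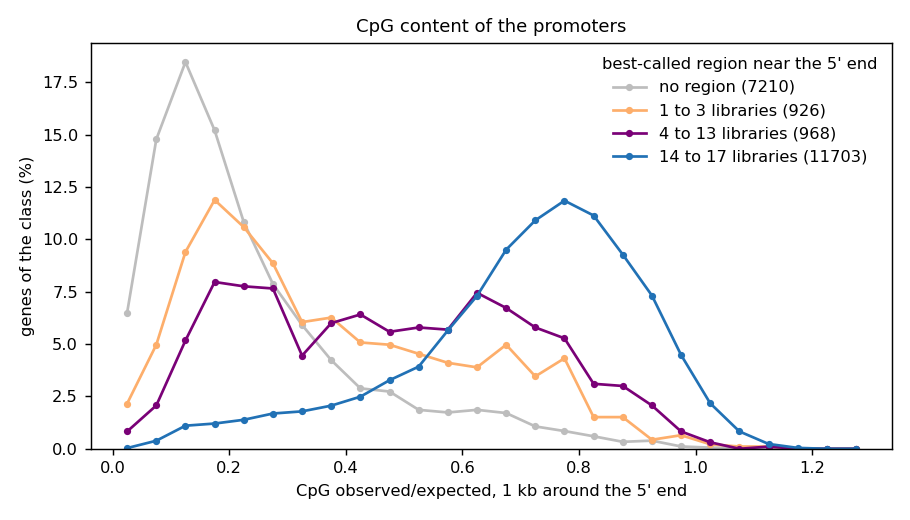
Share of genes (vertical axis, percent of each class) by the CpG observed/expected ratio of the 1 kb around the 5′ end (horizontal axis), for genes sorted by the number of libraries calling the best region near their 5′ end. Genes at 4 to 13 libraries spread over low and high ratios around a median of 0.472, between the medians of 0.182 for genes with no region and 0.739 at 14 to 17 libraries.

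Most promoter motifs followed the order of these classes. The share of genes with a GC box between 250 bases before and 50 after the 5′ end was 14.9% with no region, 43.4% at 4 to 13 libraries and 62.2% at 14 to 17, against 43.7% of all genes. An ETS core was present in 5.37%, 11.8% and 26.9%, against 17.9% of all genes, and the NRF1 core in 0.638%, 1.65% and 5.52%, against 3.45%. The E-box was present in 4.31%, 7.85% and 10.2%, against 7.82%, and the CRE in 0.721%, 1.86% and 3.63%, against 2.43%. The AP-1 site was in the reverse order, at 6.70%, 5.48% and 2.97%, against 4.52%. For these 6 motifs the genes at 1 to 3 libraries lay between those with no region and those at 4 to 13. The TATA box, typical of regulated CpG-poor promoters, was present in 5.16%, 3.20% and 0.743%, against 2.48%, with 2.81% at 1 to 3 libraries, which is below the share at 4 to 13. The CCAAT box was at 39.2%, 30.9% and 39.2%, against 38.6%, with 34.1% at 1 to 3.

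The genes also differed in length and in their neighbours. They had a median length of 21.5 kb at 4 to 13 libraries, against 24.3 kb at 14 to 17 and 9.62 kb with no region. A start on the opposite strand within 1 kb was present for 4.75% of genes at 4 to 13 libraries, against 3.35% at 1 to 3, 18.4% at 14 to 17 and 11.2% of all genes. Of the 1333 genes with a chosen region, 164 (12.3%) had another annotated protein-coding start, more than 1 kb away, inside a region called in 14 to 17 libraries, against 11.1% of all genes. Hdac4, Gcnt2, Rnf220, Slc8a1, Slc29a4 and Bdnf, which are described below, are among the 164. By chromosome the share of genes with a chosen region ran from 4.59% (chromosome 19) to 8.07% (chromosome 3), against 6.41% of all autosomal genes.

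Gene families differed in how often a member was chosen. Among families grouped by symbol, potassium channel genes (Kcn) had 15 of 92 chosen (16.3%), leucine-rich repeat genes (Lrr) 12 of 85 (14.1%) and serpin protease inhibitors 8 of 60 (13.3%), against 6.41% overall. Kcnj10, Kcnmb2, Kcnma1, Kcns1 and Kcnk9 were among the potassium channel genes. Olfactory receptors (Olfr) had 4 of 1128 chosen, with 1069 having no region at all, and vomeronasal receptors (Vmn) had 2 of 329. Families with promoters open throughout also gave few, with 2 of 67 histone genes (61 called in 14 to 17 libraries), 1 of 54 Rpl genes (46) and 2 of 44 Nduf genes (44). None of 39 Hox genes was chosen, and 38 of them had no region. Zinc finger genes (Zfp) gave 27 of 388 (6.96%), close to the overall share.

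How many of the 1363 regions a library called varied widely within groups. Diestrus control libraries 1 to 3 called 480, 833 and 714 of them, and diestrus cocaine libraries 944, 582 and 396. Proestrus control libraries called 478, 601 and 726, and proestrus cocaine libraries 1, 2 and 4 called 507, 709 and 405. Male control libraries called 993, 690 and 932, and male cocaine libraries 304 and 178. The male cocaine libraries were the lowest of all 17, and the groups of females overlapped throughout.

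In percent of the 1363 regions, the mean was 49.6% ± 13.2 (SD, n = 3) in diestrus control, 47.0% ± 20.4 (n = 3) in diestrus cocaine, 44.1% ± 9.10 (n = 3) in proestrus control, 39.6% ± 11.4 (n = 3) in proestrus cocaine, 64.0% ± 11.8 (n = 3) in male control and 17.7% ± 6.54 (n = 2) in male cocaine. The other 64144 autosomal regions called in 4 to 13 libraries were at 51.6% ± 7.80, 42.7% ± 19.8, 37.8% ± 4.67, 45.8% ± 5.62, 55.0% ± 4.68 and 14.47% ± 5.05 in the same order. The low level after cocaine in males was thus shared by regions away from promoters.

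**Figure D3:**
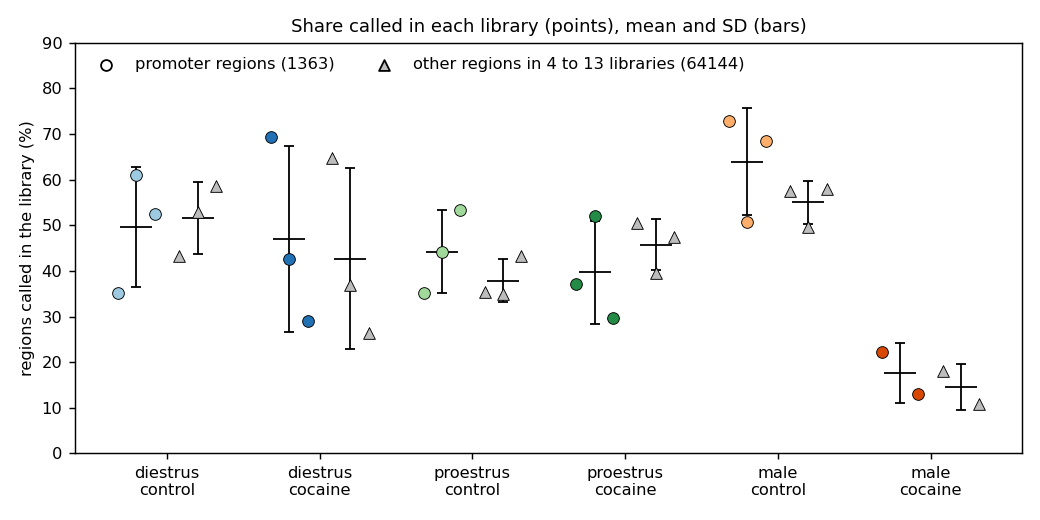
Percent of regions called in each library (points, 1 per library) with the group mean and SD (bars), for the 1363 promoter regions (circles) and the 64144 other regions called in 4 to 13 libraries (triangles). Both kinds of region are lowest in the 2 male cocaine libraries, and the female groups overlap.

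None of the differences between groups passed correction. The libraries were compared by exact permutation tests, two-sided, with Benjamini-Hochberg adjustment over 14 tests. Cocaine minus control, averaged over diestrus, proestrus and males, was -17.8 percentage points (exact permutation p = 0.065, adjusted 0.35). Taken apart, it was -2.57 points in diestrus (exact p = 0.9). It was -4.50 points in proestrus (exact p = 0.7), while males had -46.3 points (exact p = 0.1), where 0.1 is the smallest p these group sizes allow. The male and the female cocaine effect differed by -42.7 points (exact permutation p = 0.00893, adjusted 0.125), and without male control library 2 the difference was -49.4 points with an adjusted p of 0.0357. For this contrast, here and below, sex labels were shuffled within cocaine and within control libraries. Its null is thus no sex difference within either treatment, which is more than equal cocaine effects. In controls, diestrus exceeded proestrus by 5.43 points (exact p = 0.7) and males exceeded females by 17.1 points (exact p = 0.0833). The diestrus and proestrus differences turned positive without a single library. In diestrus the value was 3.20 without control library 2 and 6.41 without cocaine library 3, and in proestrus it was 0.0611 without control library 3 and 0.465 without cocaine library 4. The difference between diestrus and proestrus controls was -0.342 without diestrus control library 2. Without proestrus cocaine library 2, the library with oligodendrocyte promoters, the proestrus difference was -10.7 points.

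The share of promoter regions relative to other regions varied between replicates more than between groups. The promoter excess is the percent of the 1363 regions called in a library minus the percent of the 64144 other regions called in it. It was -7.96, 8.14 and -6.21 points in diestrus controls, 4.56, 5.74 and 2.70 after cocaine in diestrus, and -0.263, 9.16 and 10.1 in proestrus controls. Proestrus cocaine libraries 1, 2 and 4 were at -13.2, 12.5 and -17.6 points, male controls at 15.4, 1.02 and 10.4, and male cocaine libraries at 4.26 and 2.17. Proestrus cocaine libraries 1 and 4 thus called fewer promoters than their other peaks would give, and library 2 more.

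The 7 contrasts of the promoter excess gave exact permutation p-values from 0.2 to 0.811, all adjusted to 0.528 or more. The proestrus cocaine minus control difference was -12.4 points (exact p = 0.4), and -21.7 points without proestrus cocaine library 2. The diestrus difference was 6.35 points (exact p = 0.4). Males and females differed in this cocaine effect by -2.69 points (exact permutation p = 0.811), and by 0.534 without male control library 1. The percent of CpG-rich and of CpG-poor regions called rose and fell broadly together over libraries. Both were lowest in the male cocaine libraries (23.1% and 21.8% in library 1) and high in male control library 1 (76.5% and 70.6%). The gap between them differed in sign between libraries. Of the 520 regions near a CpG-rich 5′ end, diestrus control library 3 called 41.7%, against 59.0% of the CpG-poor ones, while proestrus cocaine library 2 called 57.7% against 48.5%. The part of base composition in the promoter excess was not tested.

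Complete separation, in which every library of a group called a region and no library of the other did, was counted for each pair of groups and read against all 65507 autosomal regions called in 4 to 13 libraries. No test was applied to these counts.

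In diestrus, 48 of the 1363 promoter regions (3.52%) were called in every cocaine and no control library, against 2.36% of all the regions, and 17 (1.25%) in every control and no cocaine library, against 2.18%. Of the 48, 25 covered the 5′ end and 40 had no neighbour called in 14 to 17 libraries, and of the 17, 4 covered the 5′ end and 5 had no such neighbour. Dropping a library loosens the definition. The 48 became 90 without diestrus control library 2 (6.60%, against 3.38% of all the regions) and 87 without cocaine library 1 (6.38%, against 4.45%). The 17 became 54 without control library 1 (3.96%, against 4.45%), 29 without control library 2 (2.13%, against 3.86%) and 178 without cocaine library 1 (13.1%, against 15.02%). Without cocaine library 1 the losses thus outnumbered the gains, among promoters and among all regions, where they were 9838 and 2918.

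Among genes with the 5′ end inside the region, the strongest gain in diestrus was at Gch1, which encodes the rate-limiting enzyme of tetrahydrobiopterin synthesis, the cofactor for making dopamine and serotonin. The region (mm10 chr14:47189129-47189746) had fold enrichments of 4.15, 4.03 and 3.56 in the diestrus cocaine libraries and no peak in the 3 controls. It was called in all other groups, with 4.33, 4.13 and 4.61 in male controls and 3.06 and 3.02 after cocaine in males. Only the 3 diestrus controls and proestrus control library 1 lacked it. Gem, a small GTPase that restrains voltage-gated calcium channels, showed the same 13 calls. Its region (chr4:11704079-11705192) had 3.32, 4.65 and 3.33 after cocaine in diestrus, and 4.21, 4.27 and 4.28 in male controls.

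Irak3, a brake on Toll-like receptor signalling, had 3.09, 4.91 and 2.87 after cocaine in diestrus, and was also called in all proestrus cocaine and male control libraries. Vim, which encodes the intermediate filament vimentin, had 2.97, 3.65 and 4.02 after cocaine in diestrus. Outside diestrus it was called in proestrus cocaine library 2, at 2.99, and in male control libraries 1 and 2. Vim was the only one of these 4 to be called in 6 libraries or fewer.

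Over all regions lost in diestrus the median fold enrichment, averaged over the calling libraries, was 2.93, against 3.16 for those gained. The 4 losses covering the 5′ end are all named here, whereas the named gains were picked by strength from 25. Sema3g, a secreted semaphorin, had 3.49, 3.57 and 3.01 in diestrus controls and no peak in any of the 8 cocaine libraries of the series (chr14:31217602-31218029). Adamtsl4, a microfibril-associated protein, had 2.71, 3.46 and 2.39 in diestrus controls. Six4, a homeobox factor, had 2.58, 2.46 and 2.91. Hdac4, a class IIa histone deacetylase that shuttles with neuronal activity, had 2.84, 2.79 and 2.49 in diestrus controls, but was called more strongly in male controls at 4.46, 5.23 and 4.28, and has another start in a region called in 14 to 17 libraries.

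In proestrus, losses outnumbered gains among promoters, and gains outnumbered losses among all regions. Of the 1363 promoter regions, 43 (3.15%) were called in every cocaine and no control library, against 5.17% of all the regions, and 76 (5.58%) in every control and no cocaine library, against 3.32%. Of the 43, 30 covered the 5′ end and 41 had no neighbour called in 14 to 17 libraries. Of the 76, 26 covered the 5′ end and 43 had no such neighbour. The counts of regions covering the 5′ end have no share over all regions beside them, so they are not compared. Without proestrus cocaine library 2 the counts were 81 (5.94%), against 11.4%, and 142 (10.4%), against 5.02%. The 43 also became 74 without control library 3 and 85 without cocaine library 4, and the 76 became 130 without control library 1. In the 3 proestrus cocaine libraries the promoter excess was -13.2, 12.5 and -17.6 points, as above, and its part in these counts was not tested.

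Drd4, the gene of the dopamine D4 receptor, was the strongest loss in proestrus. Its region (chr7:141291872-141292959) covers the 5′ end and had fold enrichments of 4.22, 4.87 and 3.32 in proestrus controls and no peak after cocaine. In diestrus it had 3.87, 3.91 and 5.50 in controls and a single peak after cocaine, of 5.10 in library 1. In males it had 5.48, 3.03 and 3.73 in controls and none after cocaine. Drd4 was therefore called in 9 of 9 control and 1 of 8 cocaine libraries, and the one cocaine library that called it held the most peaks of the series.

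Llgl2, a cell polarity protein, had 3.27, 3.25 and 3.89 in proestrus controls, and was called in all diestrus and male controls, in diestrus cocaine library 1 and in both male cocaine libraries. Tnni3, the cardiac troponin I gene, had 2.96, 3.25 and 3.60 in proestrus controls. It was called in 8 of 9 control libraries and in 1 cocaine library, again diestrus cocaine library 1. Gigyf1, a translational repressor cofactor, had 3.27, 3.02 and 3.60 in proestrus controls, beside a second region at its 5′ end called in 14 to 17 libraries.

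The gains in proestrus were led by Rhoj, a small GTPase known from endothelial cells (chr12:75307837-75308974). It had 3.61, 4.71 and 3.25 after cocaine in proestrus and no peak in the controls, and it was called in all 6 diestrus and all 3 male control libraries. Kcnmb2, an auxiliary subunit of the BK potassium channel, had 3.10, 4.71 and 2.62, Hk2, a hexokinase, had 2.80, 4.81 and 2.72, and Gcnt2, a glycan-branching enzyme, had 4.11, 2.99 and 3.14. All 4 were called in every male control library as well. For Rhoj, Kcnmb2 and Hk2 the strongest of the 3 proestrus cocaine libraries was library 2, the one with oligodendrocyte promoters.

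In males, 347 of the 1363 promoter regions (25.5%) were called in every control and no cocaine library, against 23.6% of all the regions, and 4 (0.293%) the other way, against 1.07%. The male cocaine libraries had the fewest peaks of the series. With the same number of the strongest peaks taken from every library (74532) and the members found anew, 940 regions were members, of which 82 (8.72%) were lost, against 12.997% of all 36317 regions called in 4 to 13 libraries, and 32 (3.40%) gained, against 5.03%. The 4 became 7 without male control library 1, 9 without cocaine library 1 and 16 without cocaine library 2.

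**Figure D4:**
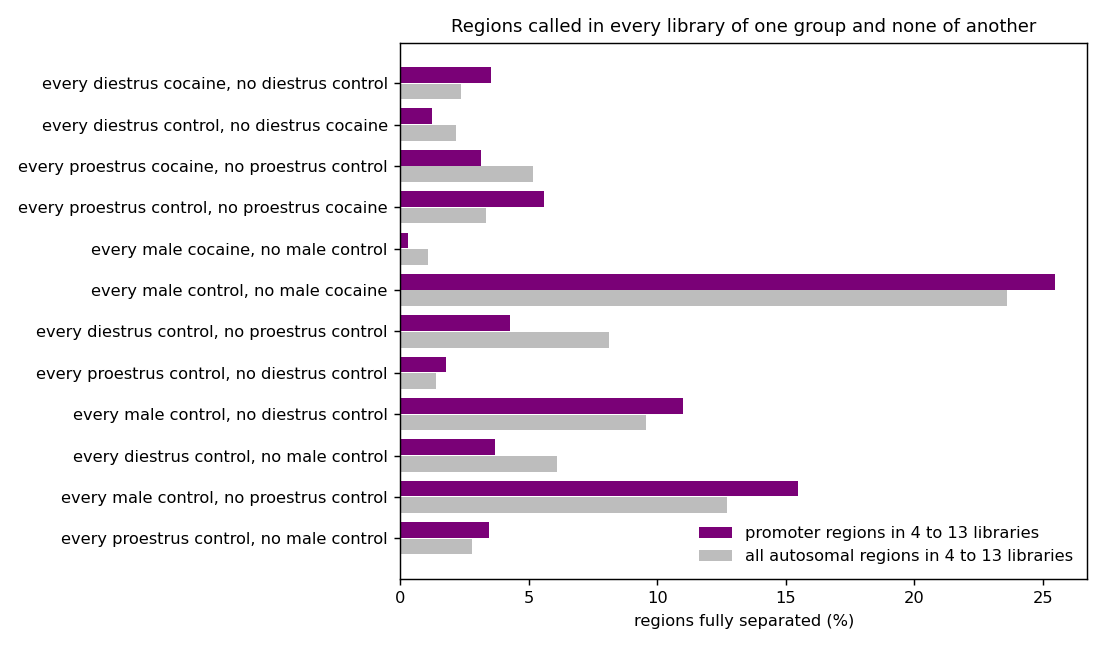
Percent of regions called in every library of the first group and in no library of the second (horizontal axis) for the 1363 promoter regions (purple) and all 65507 autosomal regions called in 4 to 13 libraries (grey). The bars for every male control and no male cocaine library reach 25.5% and 23.6%. In the cocaine comparisons of females, the promoter bar is the longer one for diestrus gains (3.52%) and for proestrus losses (5.58%).

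The 4 regions gained in males lay near 5 genes. Nts, the neuropeptide neurotensin, was called 832 bases downstream of its 5′ end, and a region 125 bases downstream of the 5′ end of Oxtr, the oxytocin receptor, had 2.30 and 2.67 there. The Oxtr region lies beside another near the same 5′ end that was called in 14 to 17 libraries. The shared start of Zfp758 and Zfp944 (chr17:22361159-22361826) had 4.48 and 3.49 after cocaine in males and no peak in male controls, and it was called in all 3 diestrus cocaine and all 3 proestrus control libraries. The last was near Gm10721, a gene model, 793 bases downstream of its 5′ end and beside a region called in 14 to 17 libraries. Those other than Zfp758 and Oxtr are named because the count is small, after their values were seen.

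The strongest losses in males were at Rtn4rl2, Neurod6, Mup5 and Slc29a4. Rtn4rl2, a Nogo receptor relative of neurons, had 7.01, 6.33 and 7.46 in male controls. In females it was called in 1 diestrus control library, all 3 diestrus cocaine, 2 proestrus control and 2 proestrus cocaine libraries, at 2.30 to 4.01. Its merged region spans 3406 bases, the strongest summit was 2465 bases upstream, and 6 of the 11 calling libraries had a peak within 1 kb. Neurod6, a bHLH factor of cortical pyramidal neurons (chr6:55680855-55681498), had 6.50, 7.44 and 6.59 in male controls, 2.70 and 2.72 in proestrus cocaine libraries 1 and 4, and no peak elsewhere. Mup5, of the major urinary protein cluster (chr4:61834940-61835733), had 6.25, 7.71 and 5.60 in male controls and 2.32 in proestrus control library 2. How reads mapping to several of the near-identical Mup copies were treated is not given in the sources used here. Slc29a4, a plasma membrane monoamine transporter, had 8.29, 3.58 and 5.60 in male controls, 3.24 and 2.70 in diestrus control libraries 2 and 3, and 2.85 in diestrus cocaine library 1. For Neurod6 and Mup5 the lowest male control value was over 2 times the highest value in any other library.

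Promoters of cortical excitatory neuron markers were called most often in the male controls, and this was not particular to them. Of 14 listed genes, each male control library had a peak at 11 promoters, each male cocaine library at 7, and female libraries at 7 to 10. Neurod6 and Emx1 were both called in the 3 male controls, and Emx1 in no other library. Slc17a6 of the same list was called only in diestrus cocaine library 1 and proestrus cocaine library 2. Over all 1363 regions, male controls also had the highest group mean (64.0%) and male cocaine the lowest (17.7%). Of 37 neuropeptide and receptor genes, male control libraries had a peak at 25 to 28 and male cocaine libraries at 19 to 22. The part of cells other than striatal ones in the male differences was not tested.

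Between the control groups, regions called only in males outnumbered those called only in a female stage, for promoters and for all regions alike. Of the 1363 regions, 150 (11.01%) were called in every male and no diestrus control, against 9.55% of all the regions, and 50 (3.67%) the other way, against 6.08%. Against proestrus controls, 211 (15.48%) were called in every male control only, against 12.7%, and 47 (3.45%) in every proestrus control only, against 2.78%. Diestrus and proestrus controls were separated at 58 regions (4.26%) called in diestrus, against 8.13%, and 24 (1.76%) called in proestrus, against 1.39%. All of these shares lay within a factor of 2 of the background. The 150 became 236 without diestrus control library 2, and the 50 became 89 without diestrus control library 1 and 82 without male control library 1. The 47 became 81 without proestrus control library 1 and 88 without male control library 1. The 58 became 111 without diestrus control library 1 and 92 without proestrus control library 3, and the 24 became 54 without diestrus control library 2 and 55 without proestrus control library 1.

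Neurod6 and Mup5 were the strongest promoters of male against diestrus controls, and Neurod6 and Slc8a1 of male against proestrus controls. Slc8a1, the sodium-calcium exchanger NCX1 (chr17:81737989-81738957), had 7.78, 6.89 and 5.27 in male controls, 3.61 and 2.70 in diestrus control libraries 1 and 3, and 2.57 to 2.90 in the proestrus cocaine libraries. Gnmt, glycine N-methyltransferase, had 3.61, 4.69 and 4.57 in diestrus and 3.17, 2.78 and 2.84 in proestrus controls and no peak in male controls. Fam19a4, a chemokine-like secreted protein, had 5.42, 3.24 and 2.91 in diestrus controls, one more peak in diestrus cocaine library 1, and none in proestrus or males.

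Rnf220, a ubiquitin ligase, had 3.61, 4.47 and 3.94 in diestrus controls and no peak in proestrus controls. The olfactory receptor gene Olfr71 had 4.26, 3.68 and 3.84 in diestrus controls, and was called in no proestrus library of either kind. In the other direction, Prss12, which encodes the synaptic protease neurotrypsin, had 2.85, 3.83 and 3.89 in proestrus controls and no peak in diestrus controls, and reached 4.21, 7.71 and 5.27 in male controls. Adamtsl5 had 2.96, 3.60 and 3.51 in proestrus controls, beside a second region near its 5′ end called in 14 to 17 libraries, and Proca1 had 2.96, 3.13 and 3.79 there with no peak in male controls.

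**Figure D5:**
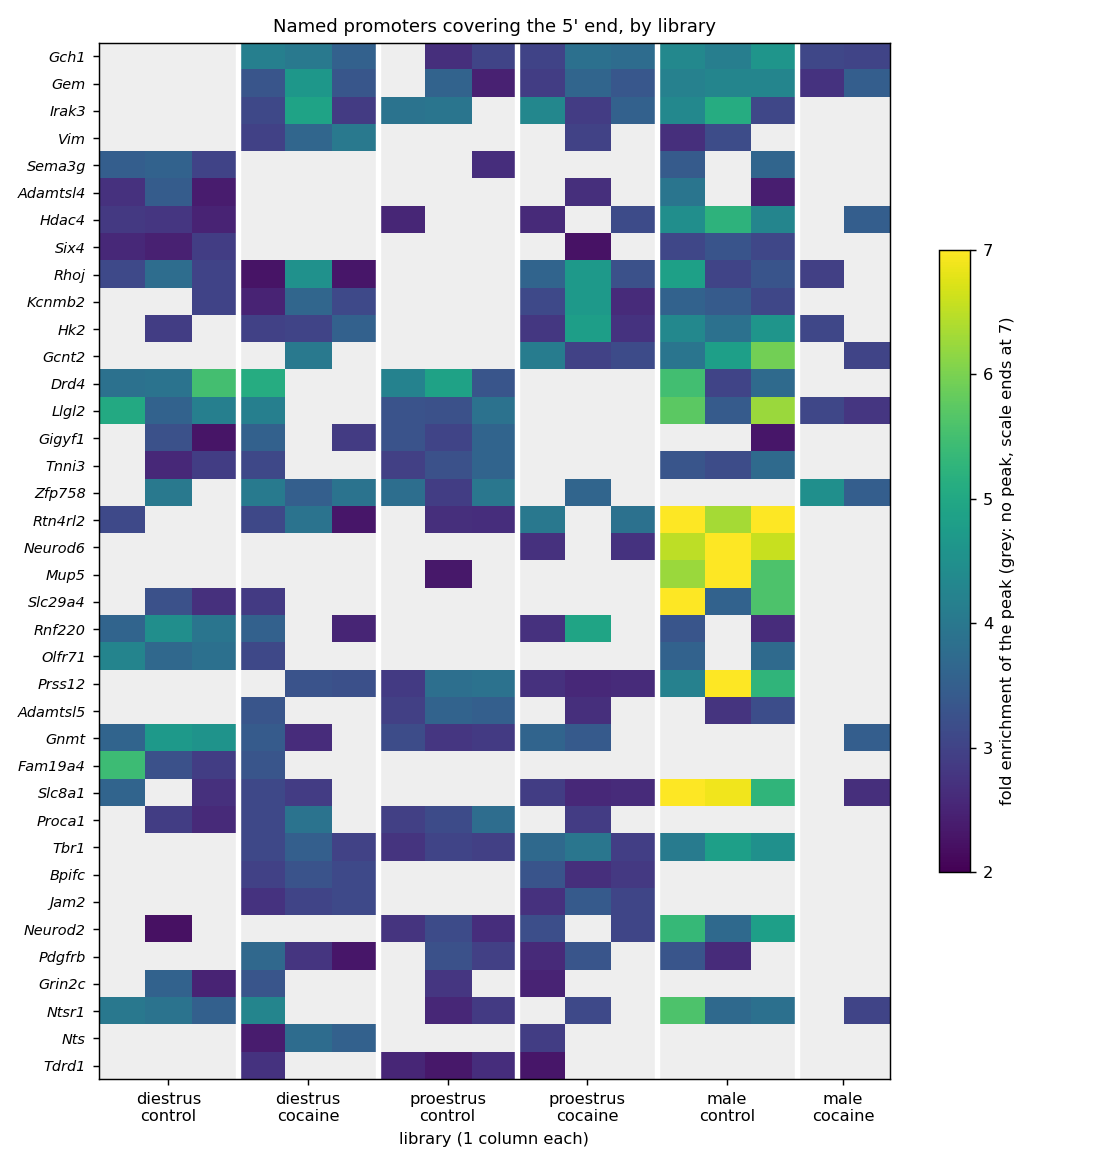
Fold enrichment of the strongest peak in each library (columns, grouped as labelled, 1 column per library) at most of the named promoters whose region covers the 5′ end (rows). Grey marks a library without a call, and the colour scale ends at 7. Drd4 is filled in all 9 control columns and 1 cocaine column, Neurod6 and Mup5 are brightest in the male controls, and Bpifc and Jam2 are filled only in the 6 female cocaine columns.

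Calls in the 8 cocaine libraries were also compared with those in the 9 controls for each of the 65507 regions by Fisher's exact test. After Benjamini-Hochberg adjustment over all of them, 0 of the 1363 promoter regions passed an adjusted p under 0.05 in either direction, and the same held for all regions. At an unadjusted p under 0.05, 22 promoter regions (1.61%) were called more often after cocaine, against 3.61% of all the regions, and 158 (11.6%) less often, against 9.02%. An exact test that compared cocaine with control within diestrus, proestrus and males gave 15 (1.10%), against 2.19% of all the regions, and 129 (9.46%), against 7.65%, with 0 after adjustment. Taking the same number of strongest peaks from each library gave 46 (4.89%) and 44 (4.68%) of 940 members, against 8.91% and 5.52% of all regions, so the excess of losses was not seen with equal numbers. Leaving out 1 library at a time gave 10 to 27 and 86 to 205.

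The smallest p was shared by regions at Drd4 and 1110017D15Rik and a region near Cldn19 (Fisher's exact p = 0.000411, adjusted 0.148). Cldn19, a claudin of tight junctions, was called in 9 of 9 control and 1 of 8 cocaine libraries, like Drd4, with 3.49, 3.13 and 3.11 in diestrus controls. Proestrus controls had 2.53, 2.90 and 3.03 there, and male controls 4.72, 3.03 and 4.28. Its region lies 926 bases upstream of the 5′ end, and 2 of the 10 calling libraries had a peak of their own within 1 kb. The 1110017D15Rik region was called in 8 of 9 control and 0 of 8 cocaine libraries, with 6 of those 8 having their own peak within 1 kb, and lies beside a region called in 14 to 17 libraries. At a −log10 q of at least 5, Drd4 was still called in 8 control and 1 cocaine library, Cldn19 in 6 control and 0 cocaine libraries, and 1110017D15Rik in 4 and 0.

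Among regions called more often after cocaine, Bpifc and Jam2 each had 6 calls in the 8 cocaine libraries and 0 in the 9 controls (Fisher's exact p = 0.00226, adjusted 0.222). Bpifc, of the bactericidal/permeability-increasing fold family (chr10:86011779-86012113), had 2.97, 3.27 and 3.10 after cocaine in diestrus and 3.30, 2.67 and 2.83 after cocaine in proestrus. Jam2, a junctional adhesion molecule of endothelium (chr16:84773452-84774644), had 2.73, 3.02 and 3.10 in diestrus and 2.70, 3.42 and 3.04 in proestrus. Neither region was called in the male cocaine libraries. A further region near the Jam2 5′ end was called in all 3 male controls and in 3 female cocaine libraries, so the absence from controls is that of the region and not of the promoter as a whole. At a −log10 q of at least 5, 3 of the 6 calls were left at each. A1cf, an RNA-editing cofactor, had a region 210 bases upstream of its 5′ end that was called in all 8 cocaine libraries and in 3 of the 9 controls (Fisher's exact p = 0.00905, adjusted 0.282).

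In 8 of the 1363 regions (0.587%), each of the 6 groups was called in all or none of its libraries, against 0.766% of all the regions. Besides Bpifc and Jam2, these were at Tbr1 and Ttpa, called in every group but diestrus control and male cocaine, Gm7489 (both female cocaine groups and male controls), Zfp503 (all 4 female groups), Osbpl5 (diestrus and male controls) and Rpl7l1 (diestrus and proestrus controls). The Zfp503, Osbpl5 and Rpl7l1 regions do not cover the 5′ end and lie beside a region called in 14 to 17 libraries. Of these Ttpa, Gm7489, Zfp503, Osbpl5 and Rpl7l1 were named after their values were seen. Tbr1, a T-box factor of cortical glutamatergic neurons (chr2:61802403-61805766), had 3.09, 3.52 and 2.99 after cocaine in diestrus, 2.75, 3.02 and 2.94 in proestrus controls, 3.71, 3.96 and 2.93 after cocaine in proestrus, and 4.08, 4.82 and 4.50 in male controls. In 10 of its 12 calling libraries a peak lay within 1 kb of the 5′ end.

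Promoters of genes that define the sorted cells were seldom among those chosen. All 12 pan-neuronal genes and 29 of 30 measured genes of striatal projection neurons had a region called in 14 to 17 libraries. The one chosen region among the 30 was at Pdyn, the gene of the opioid precursor prodynorphin. It lay 661 bases downstream of the 5′ end, beside a region called in 14 to 17 libraries. The chosen region was called in all 6 diestrus libraries, all 3 proestrus cocaine libraries, 1 proestrus control and no male library. Of the 10 calling libraries, 2 had a peak of their own within 1 kb. Of 37 activity-induced genes, 35 were called in 14 to 17 libraries.

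The one chosen activity-induced gene was Bdnf, the neurotrophin gene, which has several promoters. The region lay 301 bases upstream of the most 5′ start and had 3.44, 3.86 and 4.06 in male controls, 3.14 in diestrus cocaine library 2, 2.70 in proestrus cocaine library 1 and no peak in the other 12 libraries. Another Bdnf start lay in a region called in 14 to 17 libraries. Of 36 GABA and glutamate receptor genes, 32 were called in 14 to 17 libraries and 2 had chosen regions, each called in 5 libraries and in no male one. That of Grin2c covers the 5′ end. That of Grin3b lies 246 bases upstream, beside a region near the same 5′ end that was called in 14 to 17 libraries.

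Receptors and transporters for monoamines were chosen more often, 5 of 26 (19.2%), against 6.41% of all genes, though a list of this size gives no test. Drd3, Slc6a4 and Adra1d were among these besides Drd4. Slc6a4, the serotonin transporter, was called 896 bases upstream of its 5′ end in 5 libraries, and Adra1d, an alpha-1 adrenergic receptor, in 6, with 3.10, 2.79 and 3.01 in diestrus controls and no proestrus library.

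Neuropeptides and their receptors gave 6 of 37 (16.2%). Ntsr1, a neurotensin receptor, had 8 calls in the 9 controls and 3 in the 8 cocaine libraries (Fisher's exact p = 0.0498, adjusted 0.394). At Nts, the region covering the 5′ end had 2.37, 3.77 and 3.56 after cocaine in diestrus, 2.90 in proestrus cocaine library 1, and no peak in any control (Fisher's exact p = 0.0294, adjusted 0.332). Cartpt, the precursor of the cocaine- and amphetamine-regulated transcript peptides, had 4.04, 3.90 and 3.45 after cocaine in diestrus and 3.10, 2.46 and 2.51 after cocaine in proestrus, against 1 call in each of the 3 control groups and none after cocaine in males. Its region lay 175 bases downstream of the 5′ end. Galr1, a galanin receptor, was called in all 3 male controls and in 1 library each of the 3 cocaine groups. The ligand Nts and its receptor Ntsr1 thus had calls in opposite directions, neither past adjustment.

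Steroid and stress hormone signalling gave 4 of 21 (19.05%). Esr2, estrogen receptor beta, was called in 10 libraries, 479 bases upstream of its 5′ end, with 3.44, 4.41 and 3.51 in male controls, 2.79 and 2.49 in diestrus control libraries 2 and 3 and no peak in proestrus controls. After cocaine it was called in 2 diestrus, 2 proestrus and 1 male library. Diestrus control library 1 had a peak near the Esr2 5′ end outside this region. Prlr, the prolactin receptor, and Avpr1a, a vasopressin receptor, were each called in 5 libraries, among them 2 male controls and no female control. The Oxtr region downstream of the 5′ end was called in 4 libraries, among them both male cocaine ones, and the region beside it in 14 to 17.

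Markers of other cells were rarely among the chosen regions. None of 12 astrocyte, 12 oligodendrocyte-lineage or 13 microglial genes was chosen. Of these, 6, 3 and 2 genes had a region called in 14 to 17 libraries, and no single region near the others was called in more than 3. The microglial gene P2ry12 had a peak in 4 libraries, all of them cocaine, spread over different regions. Of 11 vascular genes the chosen one was Pdgfrb, a pericyte receptor, called in 9 libraries. These were all 3 diestrus cocaine libraries and 2 libraries each of proestrus control, proestrus cocaine and male control. No diestrus control or male cocaine library called it. Cortical excitatory genes were the list with the highest share, 5 of 14 (35.7%), namely Neurod2, Neurod6, Tbr1, Cux2 and Rorb. Neurod2 had 5.35, 3.72 and 4.83 in male controls, 2.75, 3.13 and 2.65 in proestrus controls, and no peak after cocaine in diestrus or males. A region 323 bases downstream of the 5′ end of Rorb, a nuclear receptor of cortical layer IV, was called in all 3 male controls and no proestrus control. The Rorb and Cux2 regions lie beside others near the same 5′ end that were called in 14 to 17 libraries.

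Of 15 interneuron genes the chosen one was Cck, cholecystokinin, which had 2 chosen regions. One covers the 5′ end and was called in 11 libraries, among them all 3 proestrus cocaine and no proestrus control library, all 3 diestrus controls and all 3 male controls. The other, 805 bases downstream, was called in 9, of which 4 had their own peak within 1 kb. Of 18 measured germline genes it was Tdrd1, called in all 3 proestrus controls at 2.53, 2.32 and 2.65 and in 2 other libraries. Of 21 liver, muscle and immune genes these were Apoa2, Tnni3 and Ckm, and 13 of the 21 had no region. Ckm, muscle creatine kinase, was called in 7 of 9 control and 2 of 8 cocaine libraries (Fisher's exact p = 0.0567, adjusted 0.394).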

How the data were processed

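The deposited files were MACS2 narrowPeak lists, 1 per library. Per the study's methods, the authors aligned paired reads to mm10 with BWA-MEM and called peaks in each library separately, with versions and settings not given in the sources used here. The later joining of peaks across replicates and count tests with featureCounts and DESeq2, named in the submitters' processing notes, are not in these files. In the deposited files, column 7 is the fold enrichment over background, a ratio, and columns 8 and 9 are −log10 p and −log10 q values as the authors' caller wrote them. The files give a value only where a peak was called, and no read totals, so precision comes from the number of libraries.

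With Python 3.11.15, pandas 2.3.3, NumPy 2.4.6 and SciPy 1.17.1, peaks sharing at least 1 base were merged over the 17 libraries. A library called a region if it held a peak there, and its strongest peak gave the fold enrichment. Gene starts were those of protein-coding genes in GENCODE mouse release M21, and sequence came from RefSeq's GRCm38, the same build as mm10. The members and gene lists were chosen with earlier results of these data known. Groups came from the sample titles. Nothing in the labels says whether same-numbered libraries of different groups share a day. Group differences were tested by exact permutation of libraries, calls per region by Fisher's exact test, both adjusted by Benjamini-Hochberg, and the code was tested on simulated data. Separation is a description with no test.

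Named genes were, for each comparison and direction, the fully separated regions covering a named gene's 5′ end with the highest mean fold enrichment in the calling group (4 for cocaine, 2 between controls), regions with all groups all or none (6), the 3 smallest Fisher p-values per direction and up to 4 members of each gene list. Alternatives were peaks at −log10 q of at least 5, equal numbers of the strongest peaks, a window of 250 bases, no merging, each library left out, a replicate block, females alone and a stratified exact test. A few members are not reported here.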

Additional observations from a re-analysis of the deposited data

How the results depend on the processing

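The calls are presence or absence near the detection limit, and groups of 2 or 3 libraries cannot give an exact permutation p under 0.1 within a stage or sex. No group difference passed adjustment under any alternative except that between the male and female cocaine effects without male control library 2 (adjusted p = 0.0357, range of the estimate over left-out libraries -49.4 to -37.5 points). The null of that test is no sex difference within either treatment, so it is not a test of the cocaine effects alone.

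With a −log10 q of at least 5, the percent of members called after cocaine minus control became 0.414 in diestrus and 0.796 in proestrus, and the promoter excess became 1.88 in males and 4.48 for male minus female. Counts of full separation became 21 and 35 (proestrus cocaine gains and losses), 11 (proestrus against diestrus controls), 25 (diestrus against male controls) and 14 (proestrus against male controls), and 89 regions were called less often after cocaine at an unadjusted p. With equal numbers of peaks, the values were 5.64 in diestrus, and for the excess 3.35 in males and 6.83 for male minus female. Among the 940 members, proestrus gains were 25 (2.66%, against 5.85% of all 36317 regions) and losses 36 (3.83%, against 2.88%). Male gains were 32 (3.40%, against 5.03%) and losses 82 (8.72%, against 12.997%). Diestrus against proestrus controls gave 34 (3.62%, against 7.20%) and the reverse 14 (1.49%, against 1.90%). Male against proestrus controls gave 92 (9.79%, against 10.3%). By Fisher's exact test at an unadjusted p under 0.05, 46 (4.89%, against 8.91%) were called more often after cocaine and 44 (4.68%, against 5.52%) less often.

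A window of 250 bases left 778 members. The differences were 2.83 in diestrus and 1.4996 in proestrus, the gains and losses 31 and 5 in diestrus, 32 losses in proestrus, and 2 and 211 in males. Between controls the counts were 36 and 8 (diestrus against proestrus and the reverse), 93 and 21 (male against diestrus and the reverse) and 15 (proestrus against male), and 13 and 73 regions were called more and less often after cocaine. These counts fall with fewer members and have no share over all regions beside them, so they are not read as changes. Without merging, the counts were 8 (diestrus losses), 2 (male gains) and 31 (diestrus against male controls), likewise without shares. For the other reversals the cause was not tested.

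Leaving out 1 library moved the cocaine difference from -13.7 to 6.41 points in diestrus, from -10.7 to 0.465 in proestrus, and that between diestrus and proestrus controls from -0.342 to 12.6. It was 3.20 in diestrus without control library 2 and 0.0611 in proestrus without control library 3. The promoter excess for male minus female ran from -6.65 to 0.534. Separation can only gain regions when a library is dropped, with ranges of 48 to 90 and 17 to 178 (diestrus gains and losses), 43 to 85 and 76 to 142 (proestrus), 4 to 16 (male gains), 58 to 111 and 24 to 55 (diestrus against proestrus controls and the reverse), 150 to 236 and 50 to 89 (male against diestrus) and 47 to 88 (proestrus against male). Regions called more and less often after cocaine at an unadjusted p ran from 10 to 27 and from 86 to 205. The first count was 10 to 14 without diestrus control 1, 2 or 3, diestrus cocaine 2 or 3, any proestrus control, proestrus cocaine 1 or male control 1 or 2. The second was 86 to 105 without diestrus control 2 or 3, diestrus cocaine 2 or 3, proestrus control 2 or 3, proestrus cocaine 4, male control 1 or 3 or either male cocaine library.

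As a replicate block, the 7 pairs of libraries with the same number gave a cocaine difference of -12.3 points (exact sign-flip p = 0.312) and -0.0798 for the promoter excess (exact p = 0.984), but same-numbered libraries did not deviate together over regions (r from -0.0529 to 0.0436), so the number is treated as a name. Females alone gave -3.53 and -3.04 points (exact permutation p = 0.685 and 0.58). The stratified exact test kept both counts within 1.5 times.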
